A study of Mus musculus with 5 samples.

Results

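Transcripts of the transforming growth factor beta (TGF-beta) pathway were followed in sorted mature CD8 single-positive thymocytes, the post-selection stage of CD8 T cell development in the thymus. The 10 genes described are the ligand gene Tgfb1, the receptor genes Tgfbr1, Tgfbr2 and Tgfbr3, the Smad genes Smad2, Smad3, Smad4 and Smad7, and the corepressor genes Ski and Skil. They were taken by gene symbol from the 35976 genes of the count tables, and all 10 had a row. RNA was sequenced from mice with 1 copy of the Runx3 allele named WRPW (Runx3 +/WRPW, 3 libraries) and from mice with both wild-type copies (Runx3 +/+, 2 libraries). The labels used here give no age, strain or treatment, and do not say that the libraries of a genotype came from separate animals. The p-values therefore measure the spread between these libraries, which may be technical.

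TGF-beta is a secreted dimer that binds the type II receptor kinase, encoded by Tgfbr2, which then activates the type I receptor kinase, encoded by Tgfbr1. The active type I receptor phosphorylates Smad2 and Smad3, which join Smad4 and enter the nucleus, where Ski and its relative SnoN (the product of Skil) can bind the complex and recruit corepressors. In T cells TGF-beta is known to induce CD103, the product of Itgae, and Runx proteins are known to bind Smads. As background to the allele, corepressors of the Groucho/TLE family bind the last residues of Runx proteins, VWRPY, and bind the related sequence WRPW in Hes repressors.

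Total counts ran from 15715242 to 43758550 in the Runx3 +/WRPW libraries and were 21635675 and 25526389 in the Runx3 +/+ libraries. Runx3 +/WRPW library 2 stood apart, with counts at 27414 genes against 17237 to 18967 in each of the other 4 libraries. Transcripts of Runx3 itself were at 394, 341 and 422 CPM (counts scaled to library size with TMM factors) in Runx3 +/WRPW libraries 1 to 3, against 273 and 357 CPM in the Runx3 +/+ libraries. That difference did not pass (edgeR adjusted p = 0.234), and gene-level counts cannot tell the WRPW transcript from the wild-type one. Cd8a, the gene of the sorted surface marker, was at 2268 to 2635 CPM in Runx3 +/WRPW cells and at 2202 and 2617 CPM in Runx3 +/+ cells, and Cd4 was at no more than 0.374 CPM in Runx3 +/WRPW cells against 0.467 and 5.36 CPM in Runx3 +/+ cells. Of 7 measured CD8 T cell markers 0 were higher and 2, Cd3d and Cd247 of the T cell receptor complex, were lower in Runx3 +/WRPW (edgeR adjusted p = 0.039 and 0.0278), and the list summed to 5380 to 6040 CPM in Runx3 +/WRPW against 6360 to 6520 CPM in Runx3 +/+. Markers of immature thymocytes summed to 30.4 to 35.6 CPM against 46.2 to 46.4 CPM, with Dntt lower (3.32 CPM in Runx3 +/WRPW and 12.2 CPM in Runx3 +/+), and those of B cells to 3.04 to 5.36 CPM against 9.71 to 9.75 CPM, with Cd79b lower (1.93 CPM in Runx3 +/WRPW and 7.56 CPM in Runx3 +/+). Their part in the results was not tested. In bulk RNA, a change in the mixture of cells and a change in RNA per cell cannot be told apart.

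In the main fit 1 of the 10 genes passed the test for a difference between Runx3 +/WRPW and Runx3 +/+ thymocytes. Tgfbr3, which encodes the coreceptor betaglycan, rose 2.68-fold, while the other 9 genes did not pass the test and had fitted log2 differences between -0.26 and 0.23. A gene passed at a Benjamini-Hochberg adjusted p under 0.05 over all 13666 genes in edgeR's quasi-likelihood fit, and 13.6% of all genes passed, 6.24% higher and 7.33% lower in Runx3 +/WRPW. The share of 1 in 10 is thus near that of genes at large. The 10 genes had a median log2 difference of 0.10 (0.07 and 0.03 when library 1 of Runx3 +/WRPW or of Runx3 +/+ was left out), against 0.02 over all tested genes, and a median absolute log2 difference of 0.20 against 0.22. Depth was ample for each of them, since every gene had between 1144 and 25927 counts in every library.

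**Figure D1:**
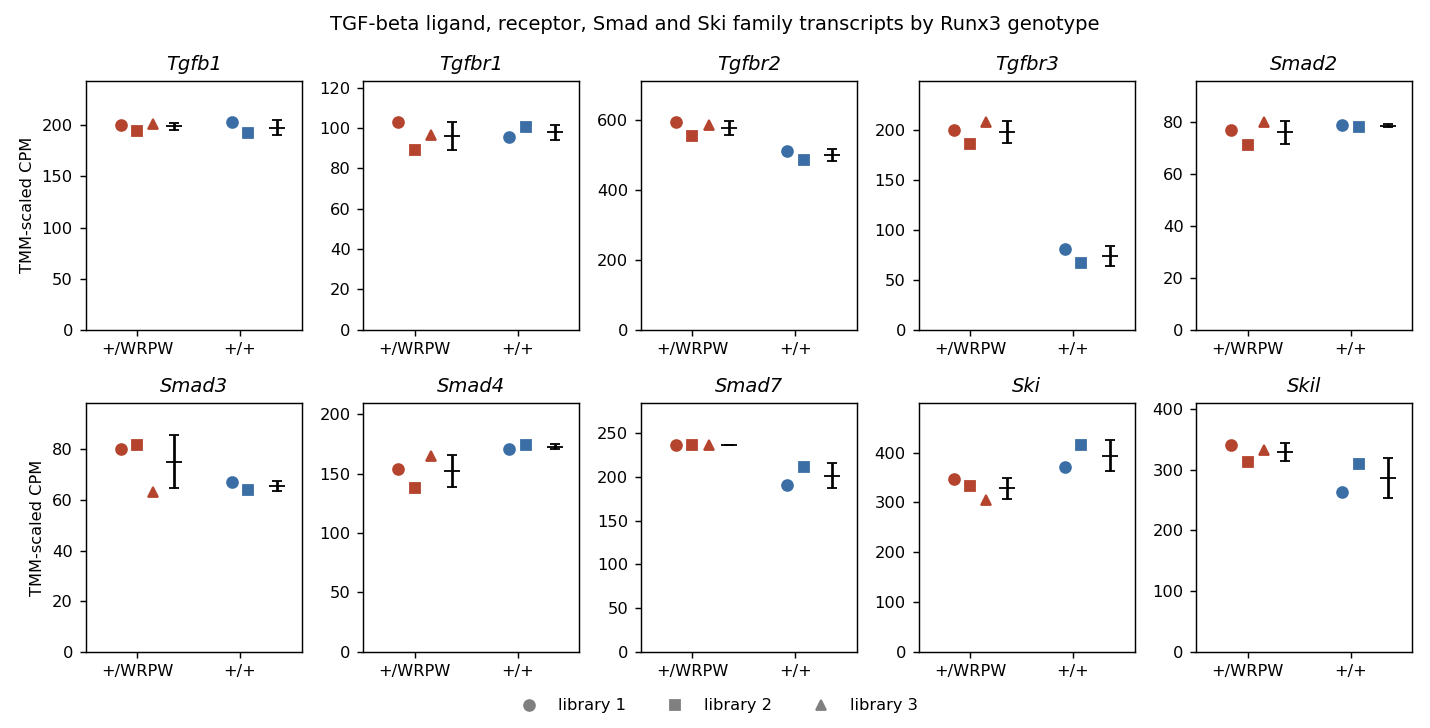
TMM-scaled CPM of the 10 genes (vertical axes, each from 0) in Runx3 +/WRPW and Runx3 +/+ libraries (horizontal axis). Each symbol is 1 library, and the black bars give the mean and SD (n = 3 and n = 2). Tgfbr3 stands at 186 to 207 CPM in Runx3 +/WRPW libraries and at 66.9 and 80.9 CPM in Runx3 +/+ libraries, and the other 9 genes lie much closer together.

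The ligand gene had the smallest fitted difference of the 10. Tgfb1 (chromosome 7, 25687002 to 25705077, mm10) had 201, 195 and 202 CPM in Runx3 +/WRPW libraries, against 203 and 193 CPM in Runx3 +/+ libraries. The Runx3 +/+ values enclose those of the other genotype. Its log2 difference was 0.01 ± 0.06 (SE), with a 95% interval of -0.14 to 0.16. That is smaller in size than the difference of all but 2.82% of the tested genes. A transcript level says nothing of the release of the latent protein.

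The receptors moved unequally. Tgfbr3 (chromosome 5, 107106570 to 107289629) encodes a membrane proteoglycan that holds TGF-beta for the type II receptor, binds inhibin as well and has no kinase of its own. It had 200.3, 186 and 207 CPM in Runx3 +/WRPW libraries, against 80.9 and 66.9 CPM in Runx3 +/+ libraries. All 3 Runx3 +/WRPW values lay far above both Runx3 +/+ values. The log2 difference was 1.42 ± 0.10 (SE), with a 95% interval of 1.17 to 1.67 and an adjusted p = 0.00145 in the edgeR test. It passed in all 13 alternative fits, at log2 differences of 1.28 to 1.53, including each fit that left out 1 library (1.46 without Runx3 +/WRPW library 2, the one that stood apart). An annotated gene model on the same strand, Gm43422, shares 297 exon bases with Tgfbr3 and has no row in the tables.

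Neither kinase receptor gene passed the test. Tgfbr2 (chromosome 9, 116084293 to 116175360) had 593, 555 and 585 CPM in Runx3 +/WRPW libraries, against 511 and 486 CPM in Runx3 +/+ libraries. The genotypes did not overlap, but the log2 difference of 0.21 ± 0.07 (SE) missed the threshold (edgeR adjusted p = 0.0873). It passed with upper-quartile factors and with DESeq2 (adjusted p = 0.0467 and 0.0266), and over the 13 alternatives the adjusted p ran from 0.0266 to 0.55. Tgfbr1 (chromosome 4, 47353222 to 47414931) had 103, 89.05 and 96.7 CPM in Runx3 +/WRPW libraries, against 95.4 and 100.4 CPM in Runx3 +/+ libraries. These ranges overlapped, and the log2 difference of -0.02 had a 95% interval of -0.21 to 0.16.

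Expressed per kilobase of exon, which allows levels of different genes to be compared, the make-up of the 3 receptor transcripts differed between the genotypes. Tgfbr3 accounted for 25.8, 25.9 and 26.9% of their summed level in Runx3 +/WRPW libraries, against 13.8 and 12.0% in Runx3 +/+ libraries. Tgfbr2 made up 61.0, 61.7 and 60.6% in Runx3 +/WRPW libraries, against 69.8 and 69.9% in Runx3 +/+ libraries. Tgfbr3 thus stood above Tgfbr1 in Runx3 +/WRPW cells, at 30.3 ± 1.64 CPM per kilobase (SD, n = 3) to 14.7 ± 1.06, and below it in Runx3 +/+ cells, at 11.3 ± 1.52 (SD, n = 2) to 15.0 ± 0.541. Within a library, the counts of Tgfbr1 per count of Tgfbr2 were 0.173, 0.160 and 0.165 in Runx3 +/WRPW, against 0.187 and 0.206 in Runx3 +/+. The ranges did not overlap, and the exact two-sided permutation test gave p = 0.1, the smallest that 3 libraries against 2 can give (0.2 after adjustment over the 4 ratios tested).

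None of the signal-transducing Smads passed the test (edgeR). Smad2 (chromosome 18, 76241580 to 76310963) had 76.9, 71.2 and 79.8 CPM in Runx3 +/WRPW libraries, against 78.8 and 78.0 CPM in Runx3 +/+ libraries. Smad3 (chromosome 9, 63646767 to 63757994), the other receptor-regulated Smad of this pathway, had 80.3, 81.8 and 63.0 CPM in Runx3 +/WRPW libraries, against 66.9 and 64.1 CPM in Runx3 +/+ libraries. Library 3 of Runx3 +/WRPW was the low one and fell below both Runx3 +/+ libraries, so the 95% interval for Smad3 was the widest among the genes that did not pass, -0.10 to 0.49. Smad4 (chromosome 18, 73639009 to 73703780), the partner common to all receptor-regulated Smads, had 154, 137.5 and 165 CPM in Runx3 +/WRPW libraries, against 171 and 174 CPM in Runx3 +/+ libraries. All 3 Runx3 +/WRPW values were lower, at a log2 difference of -0.18 ± 0.09 (SE), which missed the threshold (edgeR adjusted p = 0.227). The ratio of Smad2 to Smad3 counts was 0.958, 0.871 and 1.27 in Runx3 +/WRPW libraries, against 1.18 and 1.22 in Runx3 +/+ libraries, with an exact two-sided permutation p = 0.4 (0.533 adjusted over the 4 ratios).

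The negative regulators differed in sign. Smad7 (chromosome 18, 75367529 to 75395935), the inhibitory Smad that TGF-beta itself induces and that blocks the type I receptor, had 237, 236 and 237 CPM in Runx3 +/WRPW libraries, against 191 and 212 CPM in Runx3 +/+ libraries. The genotypes did not overlap, and the log2 difference, 0.23 ± 0.07 (SE), missed the threshold (edgeR adjusted p = 0.0803), though it passed with upper-quartile factors (0.0468) and DESeq2 (0.0357). The ratio of Smad7 to Smad3 counts was 2.95, 2.89 and 3.76 in Runx3 +/WRPW libraries, against 2.86 and 3.31 in Runx3 +/+ libraries, with an exact two-sided permutation p = 0.8.

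Ski (chromosome 4, 155154075 to 155222592) had 346, 333.5 and 305 CPM in Runx3 +/WRPW libraries, against 371 and 416 CPM in Runx3 +/+ libraries. Its relative Skil (chromosome 3, 31095058 to 31122577), which is also a known TGF-beta target, had 341, 313 and 333 CPM in Runx3 +/WRPW libraries, against 263 and 309 CPM in Runx3 +/+ libraries. Ski was thus lower and Skil higher in every Runx3 +/WRPW library, with log2 differences of -0.26 ± 0.09 and 0.20 ± 0.09 (SE) that did not pass in edgeR (adjusted p = 0.101 and 0.2). Ski passed in DESeq2 (adjusted p = 0.0204) and in none of the other 12 alternatives.

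Set against each other within a library, where scaling plays no part, the counts of Ski per count of Skil were 1.01, 1.07 and 0.916 in Runx3 +/WRPW libraries and 1.41 and 1.35 in Runx3 +/+ libraries. The difference in log2 ratio was -0.47, and the exact two-sided permutation test gave p = 0.1, again the smallest possible (0.2 adjusted over the 4 ratios). A ratio shows unequal levels and not which of the 2 genes moved.

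**Figure D2:**
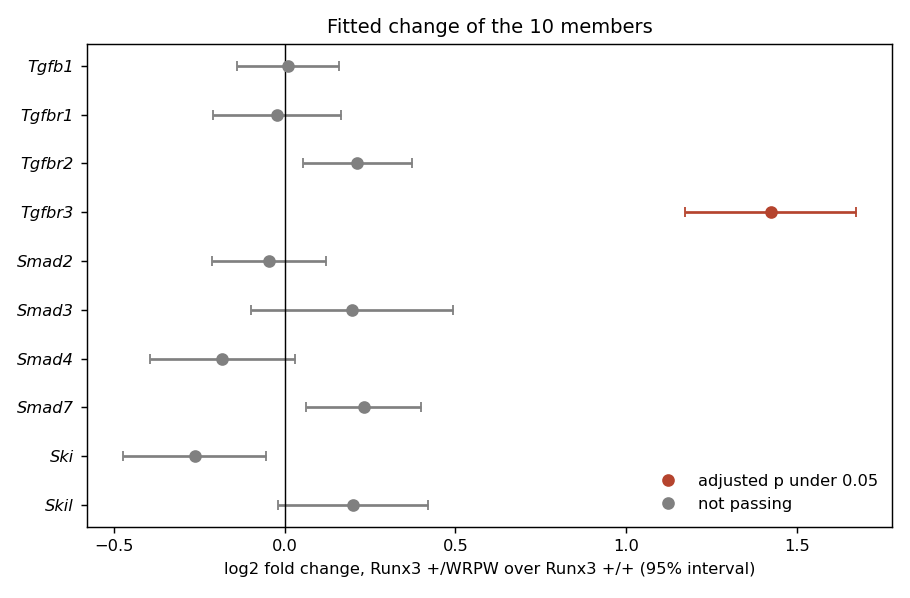
Fitted log2 fold change of Runx3 +/WRPW over Runx3 +/+ (horizontal axis) for the 10 genes (vertical axis), with 95% intervals from the standard error of the edgeR fit. The interval of Tgfbr3 runs from 1.17 to 1.67, and those of the 9 genes that did not pass lie between -0.47 and 0.49.

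The 95% intervals of those 9 genes end at a fold of 0.721 on the low side and 1.41 on the high side. Each interval holds for its gene alone and rests on the spread between these libraries. The intervals do not show that the levels were alike. At an unadjusted p under 0.05 stood 3 of the 9 (Tgfbr2, Smad7 and Ski). Counting Tgfbr3, 6 of the 10 genes had no overlap between the genotypes, while 48.5% of all tested genes had none. Of these, 4 were higher in Runx3 +/WRPW (Tgfbr2, Tgfbr3, Smad7 and Skil) and Smad4 and Ski were lower.

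The order of the levels per kilobase of exon was not the same in the genotypes. In Runx3 +/WRPW cells it was, by mean CPM per kilobase, Tgfbr2 (70.55), Ski (59.0), Smad7 (52.4), Smad4 (41.0), Tgfb1 (39.5), Skil (33.9), Tgfbr3 (30.3), Tgfbr1 (14.7), Smad3 (13.5) and Smad2 (8.65). In Runx3 +/+ cells it was Ski (70.8), Tgfbr2 (60.9), Smad4 (46.5), Smad7 (44.6), Tgfb1 (39.2), Skil (29.5), Tgfbr1 (15.0), Smad3 (11.8), Tgfbr3 (11.3) and Smad2 (8.93). Tgfbr2 lay above Ski, Smad7 above Smad4 and Tgfbr3 above Tgfbr1 in all 3 Runx3 +/WRPW libraries and in neither Runx3 +/+ library. Neighbours whose values overlapped were Smad4 with Tgfb1 and Tgfbr1 with Smad3 among the Runx3 +/WRPW libraries, and Smad4 with Smad7 and Smad3 with Tgfbr3 among the Runx3 +/+ libraries. The place of Tgfb1 depends on its length, as over all 5 libraries it took rank 1 and not rank 5 (77.2 CPM per kilobase) when its longest transcript of 2573 bases was used in place of the 5042 bases of all its exons.

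The genes whose pattern over the 5 libraries was most like that of Tgfbr3 were Cyth3, Sptb, Rgag4, Atg14 and Abhd14a. Likeness was the root-mean-square difference of log2 CPM after centring each gene on its mean, and it was 0.0603 for Cyth3, which encodes a cytohesin, and 0.0877 for Sptb, which encodes a beta-spectrin. Cyth3 had 228, 230.1 and 249 CPM in Runx3 +/WRPW libraries, against 96.5 and 73.5 CPM in Runx3 +/+ libraries. Atg14, which encodes a subunit of the autophagy lipid kinase complex, differed by 0.0954 and was at 131, 126 and 146 CPM in Runx3 +/WRPW libraries, against 62.6 and 51.0 CPM in Runx3 +/+ libraries. These genes were picked for that likeness, so their split between the genotypes is part of the choice.

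Beyond the 10 genes, the wider pathway was described by lists drawn from textbook knowledge with earlier results of these data known, so that their shares of called genes are not independent of the choice. Of 117 other genes, 90 had counts enough to be tested, and 12 were higher and 10 lower in Runx3 +/WRPW, 24.4% against the 13.6% of all genes. Their median log2 difference was -0.00, against 0.02 over all tested genes. Leaving out Runx3 +/WRPW library 1, 2 (the one that stood apart) or 3 gave 14, 19 and 18 called genes. These were 15.7, 21.1 and 20% of those tested, against 5.71, 10.8 and 6.97% of all genes in the same fits. Leaving out a Runx3 +/+ library left 1 in that genotype, and fewer of these genes and fewer of all genes passed. Counts of the lists below in such fits are to be read beside that.

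Of 11 tested genes of other receptors of the superfamily, 5 were higher, 1 was lower and 5 did not pass. This is 54.5%, against 13.6% of all genes, and the list's median log2 difference was 0.60, with 0.92 under the stricter filter and 0.91 with none. Eng, which encodes endoglin and is related to betaglycan as a coreceptor, rose 2.19-fold, with 221, 202 and 235 CPM in Runx3 +/WRPW libraries against 109 and 91.9 CPM in Runx3 +/+ libraries (edgeR adjusted p = 0.00277). Acvrl1, the type I receptor ALK1 that works with endoglin in endothelium, moved the other way and fell, with 18.5, 18.5 and 20.5 CPM in Runx3 +/WRPW libraries against 52.8 and 52.4 CPM in Runx3 +/+ libraries (2.75-fold lower, adjusted p = 0.000804). Eng and Tgfbr3 were thus higher in each Runx3 +/WRPW library than in either Runx3 +/+ library. Tdgf1, the gene of another coreceptor, Cripto, named after its values were seen, overlapped, with 42.6, 55.6 and 43.5 CPM in Runx3 +/WRPW libraries against 42.7 and 21.8 CPM in Runx3 +/+ libraries, and passed in none of the fits (edgeR adjusted p = 0.257).

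Bmpr1a, a type I receptor for bone morphogenetic proteins, rose 13.4-fold and was low throughout. It had 296, 110 and 136 counts in Runx3 +/WRPW libraries, or 6.26 to 6.85 CPM, against 8 and 15 counts, or 0.374 and 0.599 CPM, in Runx3 +/+ libraries (edgeR adjusted p = 0.00178). Acvr1b, the activin type I receptor that also acts through Smad2 and Smad3, rose 1.51-fold to 67.8 ± 5.14 CPM (SD, n = 3) in Runx3 +/WRPW, against 44.9 ± 4.75 CPM (SD, n = 2) in Runx3 +/+ (edgeR adjusted p = 0.0155). The activin and bone morphogenetic type II receptor genes Acvr2a and Bmpr2, named after their values were seen, rose 2.21-fold and 1.62-fold (edgeR adjusted p = 0.0299 and 0.0309). Acvr2b, a further activin type II receptor gene also named after its values were seen, at 12.2, 15.6 and 12.4 CPM in Runx3 +/WRPW libraries against 8.03 and 3.48 CPM in Runx3 +/+ libraries, did not pass in edgeR (adjusted p = 0.072), but passed in DESeq2 (0.0499), limma-voom (0.0431) and without Runx3 +/+ library 1 (0.0295).

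**Figure D3:**
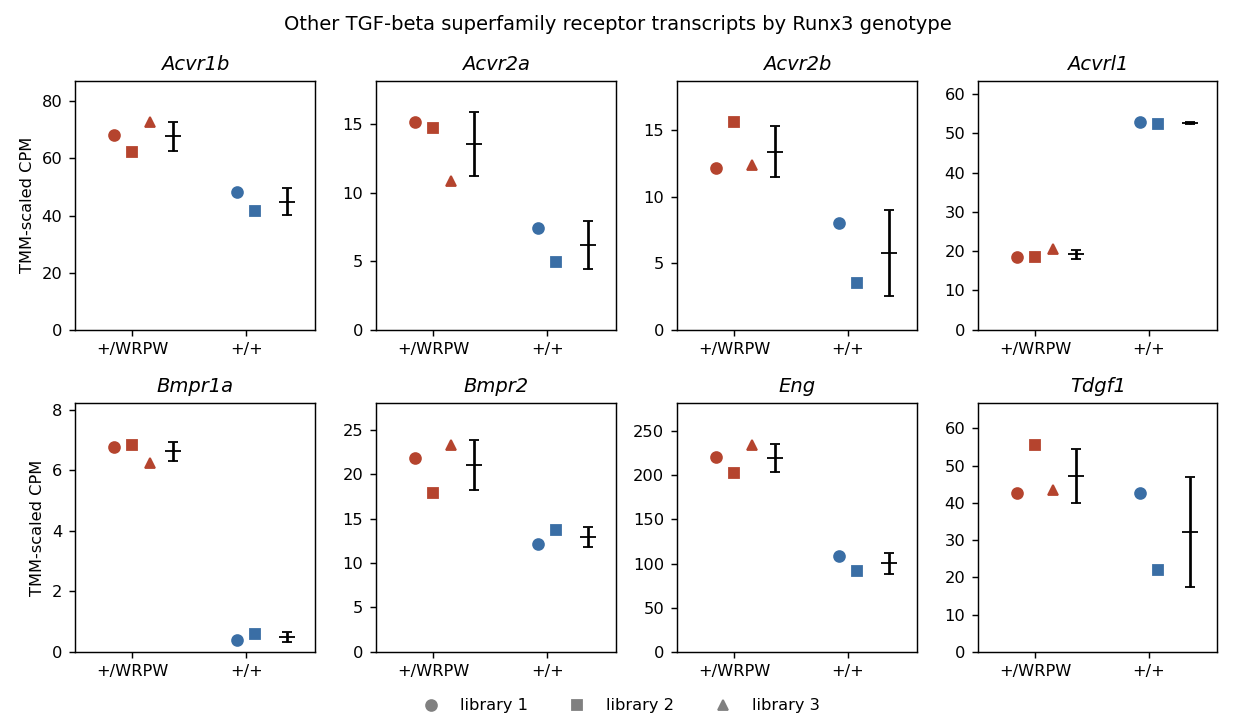
TMM-scaled CPM (vertical axes, each from 0) of the 8 other superfamily receptor and coreceptor genes with a mean of at least 5 CPM in a genotype, in Runx3 +/WRPW and Runx3 +/+ libraries (horizontal axis). Symbols are libraries, and black bars give the mean and SD (n = 3 and n = 2). Acvrl1 is lower in Runx3 +/WRPW, at 18.5 to 20.5 CPM against 52.4 and 52.8 CPM, while Eng and Bmpr1a are higher.

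Not all of these receptor calls held without every library. Acvrl1 and Bmpr1a passed in each of the 5 fits that left out 1 library, and Eng in 4, missing without Runx3 +/+ library 2 (adjusted p = 0.0602). Acvr1b missed without Runx3 +/WRPW library 1 (0.0613) and Runx3 +/+ libraries 1 and 2 (0.0966 and 0.202). Acvr2a missed without Runx3 +/WRPW libraries 1 and 2 (0.0944 and 0.0691) and Runx3 +/+ libraries 1 and 2 (0.0753 and 0.225). Bmpr2 missed without Runx3 +/WRPW libraries 1 and 3 (0.102 and 0.0825), without Runx3 +/+ libraries 1 and 2 (0.255 and 0.194), and with the replicate number as a block (0.137). Of the list, 4 genes were higher when either library 2 or library 3 of Runx3 +/WRPW was left out, and 2 when library 1 was. Leaving out Runx3 +/+ library 1 gave 3 higher genes and leaving out Runx3 +/+ library 2 gave 1, and in each of these fits 1 gene, Acvrl1, was lower.

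Eng, Acvrl1 and Tgfbr3 are also transcripts of endothelial or stromal cells. The endothelial marker list (3 of 3 genes in the tables) summed to 77.2 to 100 CPM in Runx3 +/WRPW and to 145 and 184 CPM in Runx3 +/+, almost all of it from Pecam1, a gene that T cells express as well, which fell (edgeR adjusted p = 0.0139). The defining endothelial genes were scarce, with Cdh5 at 0, 26 and 0 counts in Runx3 +/WRPW libraries against 8 and 41 counts in Runx3 +/+ libraries, and Kdr at 0, 16 and 0 counts against 3 and 0. In Runx3 +/WRPW libraries 1 to 3 Eng stood at 221, 202 and 235 CPM and Tgfbr3 at 200.3, 186 and 207 CPM. The 4 fibroblast markers summed to 1.03 to 7.97 CPM in Runx3 +/WRPW and 0.480 and 2.15 CPM in Runx3 +/+, with Pdgfra at 0 counts in every library but Runx3 +/WRPW library 2. The platelet genes Pf4 and Ppbp, markers of a cell type rich in TGF-beta 1, were at no more than 0.498 CPM in any library. Itga2b, also on the platelet list, was at 3.18, 3.18 and 3.59 CPM in Runx3 +/WRPW libraries against 4.86 and 4.28 CPM in Runx3 +/+ libraries, and did not pass. The part of such cells in the values of any library was not tested.

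The promoters of Tgfbr2, the gene of the ligand-binding kinase, and of Eng, the gene of the coreceptor related to betaglycan, are shown. Both genes were higher in every Runx3 +/WRPW library, as were others whose promoters are not shown. Eng passed the test in the main fit and Tgfbr2 did not (edgeR adjusted p = 0.00277 and 0.0873). The sequences are RefSeq's on GRCm38.p6, with coordinates of that build, and 5 of the 10 genes had a window used here. Tgfbr3, the gene that passed, was not among them, and neither were Skil, Smad2, Smad4 and Smad7. Acvrl1 and Ldlrad4 had no window used here either. Each run is the 250 bases before the start site, 5′ to 3′ on the gene's strand, and the capitals mark the Smad box GTCTG on either strand (CAGAC).
Tgfbr2, chr9:116175364-116175613, minus strand: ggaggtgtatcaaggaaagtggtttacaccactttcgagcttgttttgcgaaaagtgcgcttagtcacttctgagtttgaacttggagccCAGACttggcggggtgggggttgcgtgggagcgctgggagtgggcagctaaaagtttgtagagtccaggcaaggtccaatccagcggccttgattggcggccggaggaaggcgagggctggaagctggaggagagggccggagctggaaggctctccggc
Eng, chr2:32646345-32646594, plus strand: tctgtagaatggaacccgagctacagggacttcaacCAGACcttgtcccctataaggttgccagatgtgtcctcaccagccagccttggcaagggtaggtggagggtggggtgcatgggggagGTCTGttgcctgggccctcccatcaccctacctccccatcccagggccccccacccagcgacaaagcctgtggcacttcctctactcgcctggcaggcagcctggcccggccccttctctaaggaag
The Smad box occurs once in the window of Tgfbr2 and at 2 places in that of Eng, and 42.1% of 27025 such windows hold at least 1. It was not in the windows of Tgfb1, Tgfbr1, Smad3 and Ski. Among other receptor genes higher in every Runx3 +/WRPW library, the windows of Acvr2a and Acvr2b held it. Those of Acvr1b, Bmpr1a and Bmpr2 did not. Of the remaining receptor windows, those of Tdgf1, whose genotypes overlapped, and Bmpr1b, which was below the count filter, held the Smad box. Those of Acvr1, Acvr1c and Amhr2 did not. The Runx core motifs TGTGGT and TGCGGT (reverse complements ACCACA and ACCGCA) were in neither printed window, nor in those of Tgfb1, Tgfbr1, Smad3 and Ski. Of 11 windows of the other superfamily receptors 1 held either, and 18.7% of all windows hold either. No match says only that these letters are not in these bases.

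Other ligands were scarce. Of 11 genes, 4 were tested and 0 passed (edgeR, 0 at an unadjusted p under 0.05, and 0 in DESeq2 and limma-voom), and the most abundant of them were Gdf11, at 11.7 ± 1.78 CPM (SD, n = 3) in Runx3 +/WRPW and 10.7 ± 1.48 CPM (SD, n = 2) in Runx3 +/+, and Inha, an inhibin subunit gene, at 9.46 ± 3.62 and 4.62 ± 4.56 CPM. Tgfb2 was at 2.68 CPM in Runx3 +/WRPW library 2 and at no more than 0.14 CPM in each of the other 4 libraries. The same held for 11 more pathway genes, which had at least 0.5 CPM in that library alone and under 0.2 CPM in the others, so their counts there are not read as expression of the genotype. Of the latency and activation genes, 6 of 12 were tested and 0 passed (edgeR, 3 at an unadjusted p under 0.05, 1 in DESeq2 and 0 in limma-voom). Nrros, which encodes an anchor of latent TGF-beta on myeloid cells, was the most abundant, at 109 ± 10.0 CPM in Runx3 +/WRPW and 118 ± 2.22 CPM in Runx3 +/+, and Furin, the protease that cleaves the TGF-beta precursor, was at 86.4 ± 1.55 and 94.5 ± 1.40 CPM. The 3 genes under an unadjusted 0.05, named after their values were seen, were Nrp1, Ltbp4 and Ltbp1. They were higher in every Runx3 +/WRPW library, at log2 differences of 1.01, 1.87 and 3.48 (edgeR adjusted p = 0.0625, 0.112 and 0.113). Ltbp4 and Ltbp1, the gene called in DESeq2, were low, at 0.19 and 0.277 CPM in Runx3 +/+. The list's median log2 difference was 0.53, and 0.06 under the stricter filter.

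The Smads of the bone morphogenetic branch did not pass either, with 2 of 4 tested and 0 called (edgeR, 0 at an unadjusted p under 0.05, and 0 in DESeq2 and limma-voom). Smad5 was at 98.3 ± 2.88 CPM in Runx3 +/WRPW and 97.2 ± 5.04 CPM in Runx3 +/+, and Smad1 at 30.6 ± 0.823 and 28.8 ± 1.54 CPM. Smad6 and Smad9 were below the count filter.

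Among 20 tested Smad regulators, 2 were higher, 0 lower and 18 did not pass, or 10.0% against 13.6% of all genes. Ldlrad4, which encodes a membrane protein that holds Smad2 and Smad3 away from the receptor and is itself induced by TGF-beta, rose 2.66-fold. It had 139, 131 and 117 CPM in Runx3 +/WRPW libraries, against 53.9 and 43.3 CPM in Runx3 +/+ libraries (edgeR adjusted p = 0.00219), and passed in all 13 alternatives. Its relative Pmepa1, which acts in the same way and was named after its values were seen, was at 178, 159 and 167 CPM in Runx3 +/WRPW libraries, against 137 and 167 CPM in Runx3 +/+ libraries, and did not pass. Usp11, a deubiquitinase that acts on the type I receptor, rose 1.36-fold (edgeR adjusted p = 0.0361), a call lost in 6 of the 13 alternatives, among them the fits without Runx3 +/+ library 2 (0.199) and Runx3 +/WRPW libraries 1 (0.104), 2 (0.0788) and 3 (0.085).

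Of 16 tested nuclear partners and corepressors of Smads, 1 was higher and 2 lower, 18.8% against 13.6% of all genes, and 0 passed without Runx3 +/+ library 2. The count was 1 when Runx3 +/+ library 1 was left out and 2 without Runx3 +/WRPW library 1 or with the replicate block. Runx2, a Runt-domain factor best known from bone, rose 1.83-fold to 23.8 ± 2.92 CPM (SD, n = 3) in Runx3 +/WRPW, against 13.0 ± 0.608 CPM (SD, n = 2) in Runx3 +/+ (edgeR adjusted p = 0.0121). Runx2 missed without Runx3 +/WRPW library 1 (0.0505), without Runx3 +/+ libraries 1 and 2 (0.114 and 0.164) and with the replicate block (0.0559). Its relative Runx1 was lower, with a log2 difference of -1.97 (edgeR adjusted p = 0.00963, and 0.0933 without Runx3 +/+ library 2). The forkhead factor gene Foxo1 was lower as well, with a log2 difference of -0.67 (edgeR adjusted p = 0.0054, and 0.0604 and 0.106 without Runx3 +/+ libraries 1 and 2).

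In the Smad-independent branch, 1 of 13 tested genes was higher and 2 were lower, 23.1% against 13.6% of all genes. The count fell to 0 without Runx3 +/+ library 2, to 1 when library 1 of either genotype was left out, with no filter or with the replicate block, and to 2 without Runx3 +/WRPW library 2 or 3. Pik3r1, the regulatory subunit of phosphoinositide 3-kinase, rose 1.68-fold to 413 ± 25.9 CPM in Runx3 +/WRPW, against 245 ± 26.5 CPM in Runx3 +/+ (edgeR adjusted p = 0.00707, and 0.0824 without Runx3 +/+ library 2). Rock1, which encodes a kinase that acts on the actin cytoskeleton, was 1.45-fold lower and Daxx, an adaptor in the stress kinase arm, 1.42-fold lower (edgeR adjusted p = 0.0203 and 0.0331). Neither call held without Runx3 +/+ library 1 (0.148 and 0.0871), Runx3 +/+ library 2 (0.242 and 0.311) or Runx3 +/WRPW library 1 (0.0521 and 0.0605), and Daxx also missed without Runx3 +/WRPW libraries 2 (0.0656) and 3 (0.0862). With the replicate block neither passed (0.0594 and 0.132).

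Genes that TGF-beta is known to regulate lay on both sides. Of 9 tested genes that it is known to induce, Ldlrad4 and Junb rose, Itgae and Foxp3 fell and 5 did not pass. This is 44.4%, against 13.6% of all genes, and 2 genes passed when Runx3 +/+ library 1 or 2 was left out. Junb, an AP-1 factor gene, had 298, 271 and 277 CPM in Runx3 +/WRPW libraries, against 158 and 163 CPM in Runx3 +/+ libraries (1.76-fold, edgeR adjusted p = 0.00222, and 0.052 and 0.0582 without Runx3 +/+ libraries 1 and 2). Itgae had 64.7, 51.2 and 55.8 CPM in Runx3 +/WRPW libraries, against 725 and 874 CPM in Runx3 +/+ libraries, and passed in all 13 alternatives. Foxp3, the regulatory T cell factor gene, fell by 3.21 on the log2 scale but was low throughout, at 0.763 ± 0.393 CPM in Runx3 +/WRPW against 7.36 ± 3.21 CPM in Runx3 +/+, and it missed the threshold when Runx3 +/+ library 1 or 2 was left out (0.0775 and 0.228) and with the replicate block (0.0607). The regulatory T cell marker list, which holds Foxp3, summed to 5.61 to 9.21 CPM in Runx3 +/WRPW and to 13.1 and 22.2 CPM in Runx3 +/+, with 2 of its 3 genes lower. Il2ra, the third, was at 6.45, 4.61 and 4.09 CPM in Runx3 +/WRPW libraries against 3.78 and 3.96 CPM in Runx3 +/+ libraries, and did not pass (edgeR adjusted p = 0.377). The part of regulatory T cells in the result was not tested.

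Of 13 tested genes that TGF-beta is known to repress in T cells, Eomes and Id2 were higher, S1pr1, Klf2 and Id3 lower and 8 did not pass. This is 38.5%, against 13.6% of all genes, and 2 genes passed without Runx3 +/+ library 2. Eomes encodes an effector T-box factor that natural killer cells also express, and the natural killer genes Ncr1 and Klrb1c were at no more than 0.503 CPM in any library. Id2, an inhibitor of E proteins, was named after its values were seen and was at 349 ± 47.5 CPM in Runx3 +/WRPW against 156 ± 60.3 CPM in Runx3 +/+ (edgeR adjusted p = 0.0328). The log2 differences were 3.23 for Eomes, -3.67 for S1pr1, -2.30 for Klf2 and -2.03 for Id3. Without Runx3 +/+ library 2 the calls of Eomes (0.0813), Klf2 (0.0583) and Id2 (0.179) were lost, without Runx3 +/+ library 1 that of Eomes (0.0712), and without Runx3 +/WRPW libraries 1 and 3 that of Id2 (0.0892 and 0.0856). The called genes of either list lay on both sides of 0. The medians were -0.23 for the induced and -0.48 for the repressed list, against 0.02 for all tested genes, and neither held its value. The induced list's was 0.22 with no filter on low counts, 0.21 in DESeq2, -0.36 with the replicate block, -0.09 and -0.38 when Runx3 +/WRPW library 2 or 3 was left out, and -0.03 and 0.28 when Runx3 +/+ library 1 or 2 was. The repressed list's was 0.10 with no filter, 0.09 in DESeq2, -0.17 and -0.26 when Runx3 +/WRPW library 1 or 3 was left out, and -0.19 without Runx3 +/+ library 2.

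**Figure D4:**
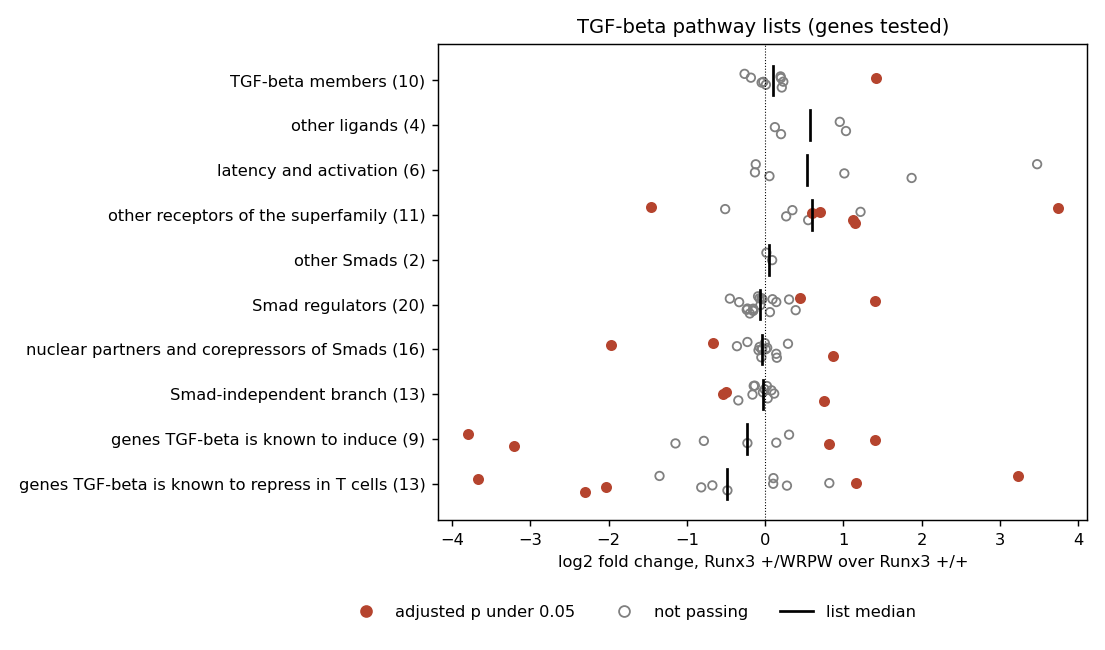
Log2 fold change of Runx3 +/WRPW over Runx3 +/+ (horizontal axis) of each tested gene in the 10 core genes, labelled TGF-beta members, and in 9 pathway lists (vertical axis, with the number tested). Filled points passed the edgeR test, and black lines are medians. The core genes other than Tgfbr3 crowd near 0, while the other receptors have 5 higher genes and 1 lower.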

How the data were processed

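The authors deposited raw counts of reads per gene, 1 table per library, and libraries were grouped by their genotype label. The tools named in the submitters' processing notes are HISAT2 2.2.1, cutadapt 4.0, edgeR 3.36.0 and featureCounts 2.0.8, with the build mm10. The sources used here do not give the annotation, the strand setting or the handling of multi-mapping reads, so reads of overlapping or near-identical genes may have been lost or shared. The column header of 1 library of each genotype does not carry its replicate number (it reads 3 for Runx3 +/+ library 2), and the sample records were followed.

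The contrast was fitted with edgeR 4.0.16 in R 4.3.3 (filterByExpr with a minimum count of 10, TMM, glmQLFit, glmQLFTest, Benjamini-Hochberg adjustment over 13666 genes). Standard errors are the size of the log2 difference over the root of its F statistic, and 95% intervals take the t quantile at the residual plus prior degrees of freedom. No pair of libraries agreed within sampling noise (smallest chi-square per gene 14.2). Coordinates and exon lengths are those of GENCODE M21. The fit was also run on simulated counts. These had a common dispersion for all genes and no library that stood apart, unlike these data, so that run does not gauge the p-values given here.

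The 10 genes and the lists were chosen with earlier results of these data known. Named are the 10 genes, Runx3, in each list up to 4 called genes with the smallest p (or the 2 most abundant where none passed), and the 5 genes most like the called one. Alternatives were RLE factors, upper-quartile factors, DESeq2 1.42.0, limma-voom 3.58.1, no filter, a stricter filter (1 CPM in each library of a genotype), robust dispersion, the replicate number as a block, and each library left out.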

Additional observations from a re-analysis of the deposited data

How the results depend on the processing

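Tgfbr3, Acvrl1, Bmpr1a, Ldlrad4, Itgae, S1pr1 and Id3 kept their direction and their call in all 13 alternatives. The number of the 10 genes that passed was 1 except with upper-quartile factors (3) and DESeq2 (4), and it was 1 in every fit that left out a library. Deviations of same-numbered libraries from their genotype mean correlated at -0.0467 and 0.00332 across 13666 genes. This cannot show whether libraries were paired, since the deviations of 2 Runx3 +/+ libraries mirror each other. The header of Runx3 +/+ library 2 also reads 3. With the replicate block, which took the numbers of the sample records, 1 of the 10 genes, 16 of the other pathway genes and 754 of all genes passed. All genes called numbered 1079 with no low-count filter, which tests 28583 genes, and 277 to 1431 over the fits without 1 library; other pathway genes numbered 6 to 19 over those fits. The lone Runx3 +/+ library was there assumed to vary like the other genotype. Tgfb1 moved from rank 5 to rank 1 by level with the length of its longest transcript. Differences near 0 changed sign. Tgfb1 was -0.00595 with DESeq2 and -0.0358 to 0.0221 without 1 library, and Tgfbr1 was 0.00707 with upper-quartile factors and -0.0952 to 0.0259 without 1 library. Smad5 was -0.00104 with DESeq2, -0.00378 with the replicate block and -0.0723 to 0.0612 without 1 library, Gdf11 was -0.0218 to 0.234 and the Smad7 to Smad3 log2 ratio difference -0.075 to 0.152 without 1 library. The causes were not tested. No scaling moved the median of all genes by over 0.1. Counting error was at most 2.96% of a level for any of the 10 genes in any library.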
